A study of Homo sapiens with 4 samples.

Results

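Genes that make and break down polyamines were examined in HCC1954, an established human breast carcinoma cell line with amplified HER2. The 10 genes were chosen by name for their place in the pathway, with earlier results of these data known, out of 58735 genes with counts. They are the synthetic enzymes ODC1, AMD1, SRM and SMS, the antizymes OAZ1 and OAZ2, the antizyme inhibitor AZIN1, and the catabolic enzymes SAT1, SMOX and PAOX. Total RNA was sequenced from 4 samples, 2 with a scrambled hairpin (shCON) and 2 with a hairpin against the palmitoyltransferase ZDHHC15 (shZDHHC15), to ask how transcription changed once ZDHHC15 was depleted. All samples grew in the same medium and the labels name no other agent. The labels call the knockdown stable in one field, while their protocol describes plasmids transfected transiently and cells taken after 36 h. The study's methods mention that several monoclonal cultures were screened for hairpins, and do not say whether these samples came from 1 clone. Nothing says whether samples 1 and 2 were separate cultures or separate hairpins, so the p-values measure only the spread between these samples, which may be technical.

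Polyamines are small, positively charged molecules that bind nucleic acids and support translation and cell growth. Ornithine decarboxylase (ODC1) makes putrescine, and the synthases SRM and SMS lengthen it to spermidine and then spermine with aminopropyl groups that AMD1 provides from S-adenosylmethionine. Antizymes bind ODC1 and send it to the proteasome, while the antizyme inhibitor AZIN1, a relative of ODC1 without its activity, draws antizyme away. SAT1 acetylates spermidine and spermine for export or for oxidation by PAOX, and SMOX oxidises spermine directly. The pathway is known in breast and other cancers for its high activity and for ODC1 as a target of the transcription factor MYC.

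Libraries held 17560982 to 19118704 counts, and a gene with a count of 0 could still lie at up to 3 counts, or 0.153 to 0.178 CPM, the unit of counts relative to the size of each library. That limit covers counting error alone. ZDHHC15 itself had 17617 and 15716 counts in shCON and 0 in both shZDHHC15 samples. Replicates differed by more than sampling noise in both groups. Of the epithelial markers EPCAM, CDH1, KRT8, KRT18, KRT19 and ERBB2, each was detected in every sample, 4 fell and 1, KRT19, rose, and their summed level was 13604 and 14611 CPM in shCON against 7992 and 7966 in shZDHHC15. The leukocyte sum was 0.932 and 0.889 CPM in shCON against 1.99 and 1.48 in shZDHHC15, with CD3E at 0 in every sample and CD14, at 9 and 5 counts against 25 and 22, called higher. The fibroblast sum was 5.81 and 7.17 CPM against 11.5 and 8.51, with LUM at 0 throughout and COL1A1, at 100 and 120 counts against 214 and 161, called higher. Of the oestrogen receptor genes, ESR1 rose from 161 and 103 counts to 308 and 305, and PGR had at most 1 count. The endothelial sum was 57.1 CPM in both shCON samples against 107 and 101, from PECAM1 and CDH5, which rose, while KDR fell. Of all tested genes 20.3% were called lower and 21.7% higher, and the calls of these markers are read against that. The part of these shifts in the results below was not tested. In bulk RNA of a cell line, a change in every cell and a change in the share of some cells of that line cannot be told apart.

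Most polyamine genes were lower in shZDHHC15, ODC1 by far the most. All 10 genes passed the filter on low counts. By edgeR's quasi-likelihood test with adjustment over 15817 genes, 7 of the 10 fell in shZDHHC15 (ODC1, SMOX, AMD1, OAZ2, AZIN1, OAZ1 and SMS) and 3 did not pass (SRM, SAT1 and PAOX). Among all tested genes 20.3% were called lower, 21.7% higher and 42.0% in either direction. None of the 10 was called higher by edgeR or by DESeq2, and 0 were higher at an unadjusted p under 0.05. The median log2 fold change of the 10 genes was -0.39, beside 0.02 over all tested genes. Together they took 0.306% and 0.296% of the counts in shCON against 0.245% and 0.259% in shZDHHC15.

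**Figure D1:**
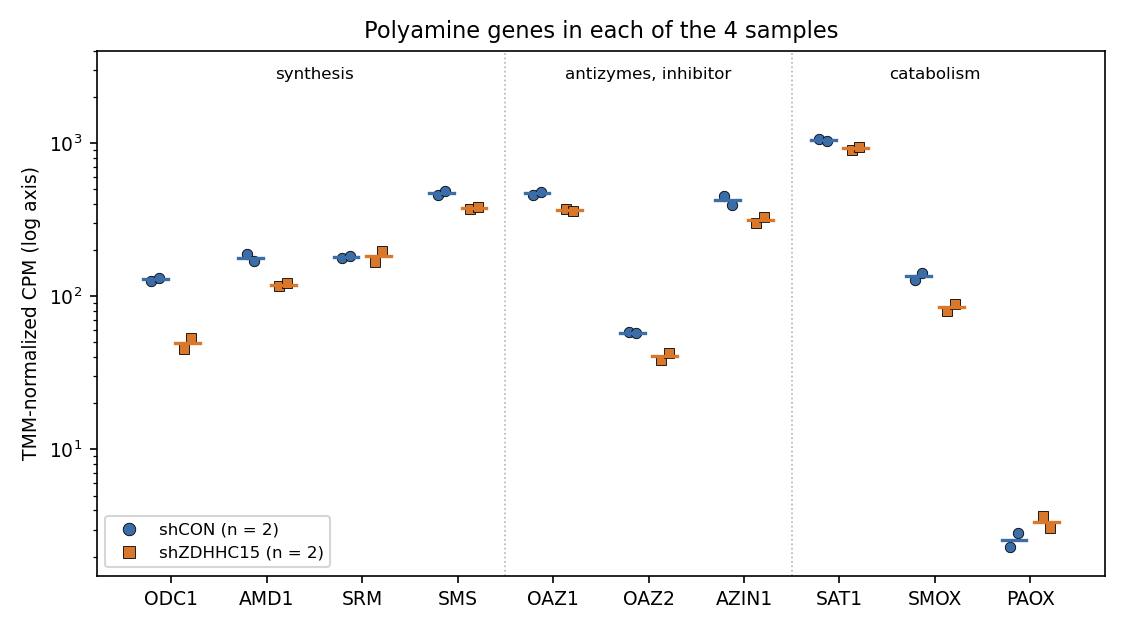
TMM-normalized CPM (log axis) of each polyamine gene in each of the 4 samples, with circles for shCON, squares for shZDHHC15 and bars at the group means (n = 2). The symbols of the groups overlap for SRM alone, PAOX is the one gene with higher symbols in shZDHHC15, and the widest gap is that of ODC1.

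ODC1 (ENSG00000115758, chr2:10439968-10448504, minus strand, GRCh38) makes putrescine, the first and most tightly regulated step. It had 2306 and 2213 counts in shCON and 840 and 1054 in shZDHHC15. On the scale of TMM-normalized CPM these were 126 and 131 against 45.1 and 53.7, so the lower shCON sample stood far above the higher shZDHHC15 sample. The mean level went from 129 ± 3.33 to 49.4 ± 6.07 CPM (SD, n = 2 each), or 38.4% of the shCON level. The log2 fold change was -1.38 (SE 0.108, 95% interval -1.61 to -1.15, edgeR adjusted p = 1.58e-07). Only 1.91% of the tested genes had a lower fold change. A call with a log2 fold change under -1 was made for 3.79% of all tested genes, and ODC1 was the 1 such gene of the 10. Without any 1 sample the value stayed between -1.51 and -1.26.

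ODC1 and SRM were the genes of the 7 with RefSeq promoters (GRCh38.p14, 250 bases before to 50 bases after the start) that held the letters CACGTG, the E-box bound by MYC and MAX. Both stretches are shown because they hold the motif. The fold changes of ODC1 and SRM were -1.38 and 0.03 on the log2 scale, and any part of the motif in them was not tested. RefSeq lists 2 starts for ODC1, and the one at 10448012 has a match at -29 to -24 and another at +6 to +11, while the promoter of the other start has none. The SRM match lies at -199 to -194. The capitals mark CACGTG, which reads alike on both strands and was found in 7.26% of 35116 RefSeq promoters.
ODC1, -60 to +20, minus strand, chr2:10447993-10448072: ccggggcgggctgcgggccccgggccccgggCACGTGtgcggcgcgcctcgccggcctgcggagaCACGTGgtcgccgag
SRM, -226 to -167, minus strand, chr1:11060185-11060244: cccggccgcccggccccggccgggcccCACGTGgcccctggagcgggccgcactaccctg
No promoter of these 7 genes held GGAATG or its complement, the letters of the TEAD motif, which 14.0% of all promoters hold. GAAAC, part of the interferon-stimulated response element, was found for OAZ2, AMD1, SMS and SAT1 and in 43.1% of all promoters. TATAAA was found for OAZ1, at +7 to +12, and in 11.5% of all promoters. TGACTAA, the core of the polyamine response element described for SAT1, was in none of them and in 1.90% of all promoters. These are matches of letters and not measured binding, and they were searched on both strands. Sequence outside these promoter windows was not searched.

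The other synthetic genes spread widely. AMD1 (ENSG00000123505, chr6:110874770-110895713), S-adenosylmethionine decarboxylase, had 189 and 169 CPM in shCON and 116 and 122 in shZDHHC15. The groups stood clear of each other, and the means were 179 ± 14.3 and 119 ± 4.11 CPM (SD, n = 2 each). The log2 fold change was -0.59 (SE 0.0966, edgeR adjusted p = 2.04e-04), or 66.4% of the shCON level. SMS (ENSG00000102172, chrX:21940573-21994835), spermine synthase, had 455 and 486 CPM in shCON and 371 and 381 in shZDHHC15. The SMS groups did not overlap either, at a smaller distance, with a log2 fold change of -0.32 (SE 0.0871, edgeR adjusted p = 0.00791). Without sample 1 of shZDHHC15 SMS was no longer called, at -0.30 with an edgeR adjusted p of 0.0942. SMS shares stretches of 1101 and 1098 bases, at 97.09% and 98.36% identity, with the processed pseudogenes AL583856.1 and AL354714.2, whose counts came to 2.01% and 1.41% of those of SMS, and reads could have been split between them.

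SRM (ENSG00000116649, chr1:11054584-11060024), spermidine synthase, was the exception among the synthetic genes. Its level was 177 and 183 CPM in shCON and 168 and 198 in shZDHHC15, so the shZDHHC15 samples lay on either side of both shCON samples. The log2 fold change was 0.03 (SE 0.0990, 95% interval -0.19 to 0.24, edgeR adjusted p = 0.859). Its sign turned with upper-quartile factors (-0.0047), without sample 1 of shCON (-0.02) and without sample 2 of shZDHHC15 (-0.09).

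Both antizymes and their inhibitor fell, with log2 fold changes of -0.52 to -0.36 against -1.38 for ODC1. Antizyme is made only when the ribosome shifts frame at a stop codon, a step that polyamines are known to favour, and the site is shown for both genes because it is the sequence feature that sets this pair apart. Capitals mark the stop codon TGA, whose T, at 2271443 on chromosome 19 and 64691515 on chromosome 15, is left out of the annotated coding sequence in 2 transcripts of OAZ1 and 3 of OAZ2.
OAZ1, plus strand, chr19:2271426-2271455: ggcctcggtggtgctccTGAtgcccctcac
OAZ2, minus strand, chr15:64691503-64691532: ggcctctgtggtgctccTGAtgcccctcac
Over these 30 bases the genes differ at 1 place, G7T (OAZ1 base, position from the 5′ end of the window, OAZ2 base). Gene counts measure the transcript and not the frameshift.

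OAZ1 (ENSG00000104904, chr19:2269509-2273490), the main antizyme of most tissues, had 456 and 481 CPM in shCON and 371 and 360 in shZDHHC15. The groups did not overlap, and the log2 fold change was -0.36 (SE 0.0865, edgeR adjusted p = 0.00403), or 78.1% of the shCON level. Without sample 2 of shZDHHC15 the value was -0.34 with an edgeR adjusted p of 0.0533. OAZ2 (ENSG00000180304, chr15:64687573-64703281) had 58.1 and 57.7 CPM in shCON and 38.6 and 42.4 in shZDHHC15. Its shCON samples lay closer to each other than those of any other gene of the 10, with an SD of 0.283 CPM. The log2 fold change of OAZ2 was -0.52 (SE 0.107, edgeR adjusted p = 0.00140). Exons of OAZ1 overlap those of JSRP1 on the opposite strand, which had at most 13 counts in a sample. The antisense gene AC100830.3 shares 554 exon bases with OAZ2 and had 0 counts. The antisense genes AC100830.1 and AC100830.2 overlap the span of OAZ2 without shared exon bases and had at most 3 and 2 counts in a sample.

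AZIN1 (ENSG00000155096, chr8:102826357-102893864), the inhibitor that frees ODC1 from antizyme, had 451 and 395 CPM in shCON and 303 and 330 in shZDHHC15. The groups did not overlap, although the shCON samples lay further apart than those of the antizymes. The means were 423 ± 39.9 and 316 ± 19.4 CPM (SD, n = 2 each), and the log2 fold change was -0.42 (SE 0.0954, edgeR adjusted p = 0.00271). The antisense gene AZIN1-AS1 shares 344 exon bases with AZIN1 and had 18 to 41 counts, against at least 5637 for AZIN1. Without strand in the counting, reads of a gene and its antisense partner cannot be told apart, and whether strand was used is not given in the sources used here.

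The catabolic genes differed among themselves. SMOX (ENSG00000088826, chr20:4120980-4187747), spermine oxidase, had 128 and 141 CPM in shCON and 79.9 and 89.0 in shZDHHC15. Its groups stood well apart, with a log2 fold change of -0.67 (SE 0.101, edgeR adjusted p = 9.71e-05), or 62.7% of the shCON level. After ODC1 this was the lowest fold change of the 10, and it stayed between -0.76 and -0.60 without any 1 sample. SAT1 (ENSG00000130066, chrX:23783173-23786226), the acetyltransferase that starts polyamine export and breakdown, had 1062 and 1038 CPM in shCON and 897 and 945 in shZDHHC15. The SAT1 groups did not overlap, but the difference did not pass, with a log2 fold change of -0.19 (SE 0.0842, 95% interval -0.37 to -0.01, edgeR adjusted p = 0.0849). PAOX (ENSG00000148832, chr10:133379234-133391694), the oxidase of acetylated polyamines, had only 42 and 48 counts in shCON and 68 and 60 in shZDHHC15. Both shZDHHC15 samples of PAOX were above both shCON samples, and the log2 fold change of 0.38 (SE 0.269, 95% interval -0.19 to 0.96, edgeR adjusted p = 0.274) did not pass.

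**Figure D2:**
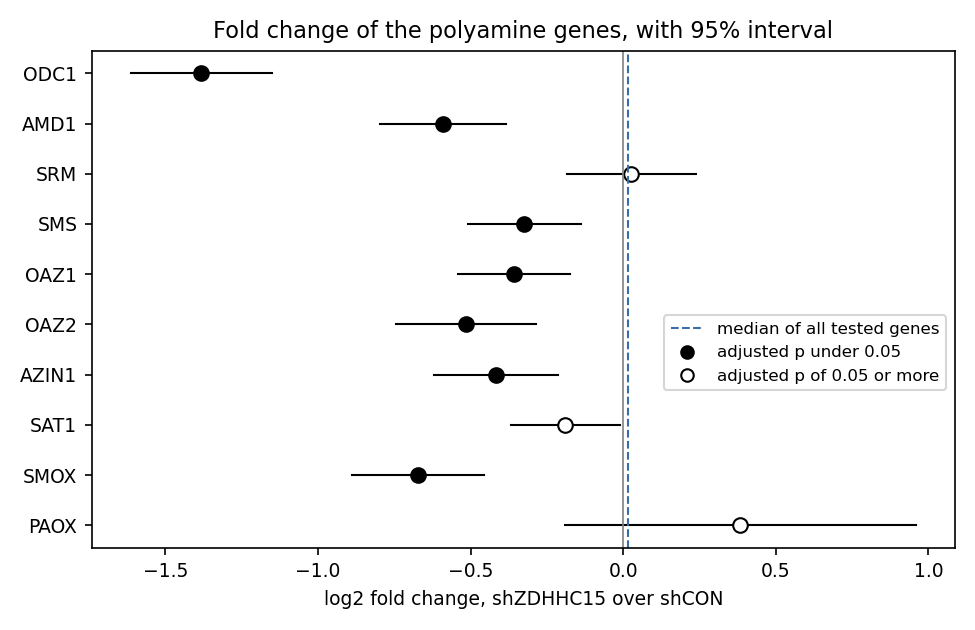
Log2 fold change (shZDHHC15 over shCON) of each polyamine gene with its 95% interval from the edgeR fit, filled where the adjusted p was under 0.05. ODC1 lies at -1.38, 6 more filled genes lie between -0.67 and -0.32, and the open symbols are SRM, SAT1 and PAOX; the dashed line is the median of all tested genes, 0.02.

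The groups of 9 of the 10 genes did not overlap in CPM, 8 with shZDHHC15 lower and PAOX with it higher, and 72.5% of all tested genes did not overlap either. The count of 9 is read against that share, and it adds little to the sizes and tests above.

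Levels of different genes were compared per length, as TPM, the counts divided by gene length and scaled to the same total in each sample. In shCON, SAT1 was the most abundant at 1421 ± 78.0 TPM (SD, n = 2), followed by SMS at 736 ± 6.39, OAZ1 at 460 ± 0.617 and SRM at 320 ± 4.09. AZIN1 (223 ± 29.6 TPM), SMOX (154 ± 4.29) and ODC1 (147 ± 1.90) came next, and AMD1 (86.2 ± 10.2), OAZ2 (25.5 ± 1.11) and PAOX (3.81 ± 0.420) were lowest. No neighbours in this order overlapped between samples. In shZDHHC15 the order by TPM was the same but for ODC1, at 60.6 ± 7.39 TPM, and AMD1, at 61.6 ± 2.07 TPM, which changed places and overlapped.

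Ratios of TPM within a sample do not depend on how libraries were scaled. ODC1 stood at 0.321 and 0.316 of OAZ1 in shCON and at 0.141 and 0.173 in shZDHHC15, a difference of -1.03 on the log2 scale. Against AZIN1, ODC1 stood at 0.607 and 0.720 in shCON and at 0.323 and 0.352 in shZDHHC15. ODC1 was therefore lower relative to both its antizyme and the inhibitor of that antizyme. AMD1 was at 0.631 and 0.543 of ODC1 in shCON and at 1.09 and 0.957 in shZDHHC15, and SAT1 went from 9.98 and 9.40 times ODC1 to 23.6 and 20.9 times. Between the synthases, SRM was at 0.442 and 0.428 of SMS in shCON and at 0.517 and 0.590 in shZDHHC15, a log2 difference of 0.34. SMOX was 43.0 and 38.3 times PAOX in shCON and 16.9 and 22.5 times in shZDHHC15, where the few counts of PAOX limit the precision. The ratio of OAZ1 to OAZ2 moved least, from 17.5 and 18.6 to 21.4 and 19.0. None of the 7 ratios overlapped between groups, and 2 samples against 2 cannot give a two-sided permutation p under 0.333, so none was tested. Several of the ratios share ODC1, so they are not separate observations. The share of other gene pairs without overlap was not computed, and 72.5% of single tested genes did not overlap either.

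**Figure D3:**
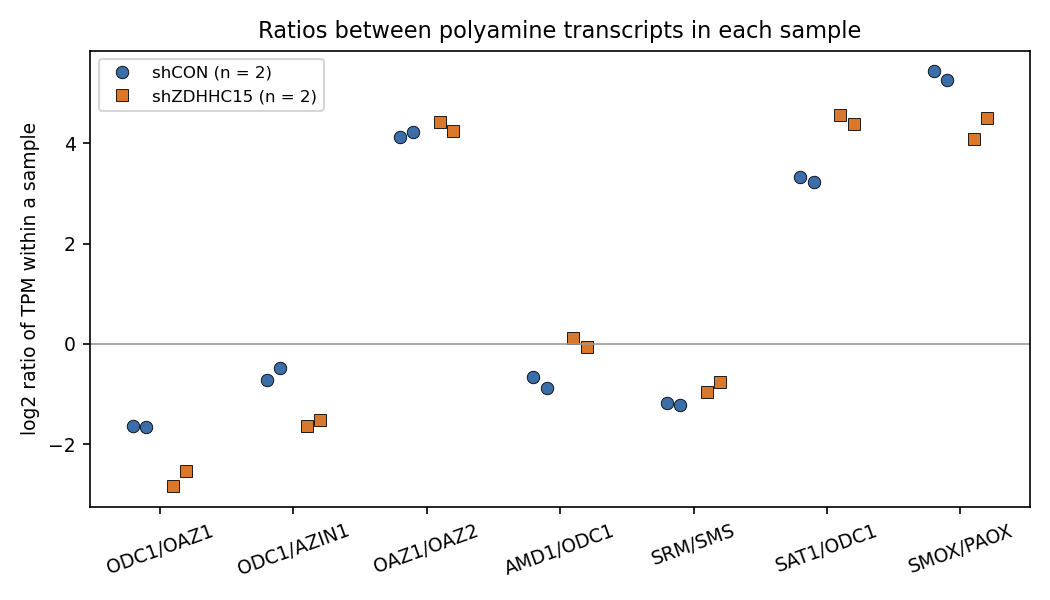
Log2 ratio of TPM between pairs of polyamine genes within each sample, with circles for shCON and squares for shZDHHC15 (n = 2 each). The ratios of ODC1 to OAZ1 and to AZIN1 and of SMOX to PAOX are lower in shZDHHC15, and those of OAZ1 to OAZ2, AMD1 to ODC1, SRM to SMS and SAT1 to ODC1 are higher.

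The genes with profiles most like that of ODC1 were sought among 9131 protein-coding genes of at least 10 CPM, by the distance between centred log2 values over the 4 samples. They were GJA5, a gap junction protein, at a distance of 0.0600, UBL3, a membrane-anchored ubiquitin-like protein, at 0.0810, and CCND1, cyclin D1, at 0.0843. Their log2 fold changes were -1.39 (SE 0.143), -1.39 (SE 0.107) and -1.30 (SE 0.0939). CCND1 shares exon bases with LTO1 on the opposite strand. The 4 samples form 2 groups, so this likeness includes the difference between them.

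Of 56 further genes listed for neighbouring steps, 43 were tested, and 8 rose, 16 fell and 19 were not called, with a median log2 fold change of -0.19. Over all tested genes 21.7% were called higher and 20.3% lower, and the shares of these lists are read against that. The steps that feed or follow the pathway moved in different directions. Of the 4 tested genes that supply arginine and ornithine, ASS1, argininosuccinate synthase, rose from 180 ± 18.7 to 397 ± 22.6 CPM (SD, n = 2 each; log2 fold change 1.14, SE 0.0984, edgeR adjusted p = 4.32e-07). The others did not pass, among them OAT, which interconverts ornithine and glutamate semialdehyde and is the most abundant of the 4 by counts, at 0.15 with an edgeR adjusted p of 0.185. Of the minor homologues, OAZ3 had 32 and 29 counts against 51 and 65 and was called higher (edgeR adjusted p = 0.0393), though its exons overlap those of the far more abundant MRPL9 and the call was lost in DESeq2 (adjusted p = 0.175), with no filter (edgeR adjusted p = 0.0817) and without sample 1 or 2 of shCON or sample 2 of shZDHHC15 (edgeR adjusted p 0.107 to 0.190). AZIN2 had 4 and 7 counts against 10 and 15 and did not pass (edgeR adjusted p = 0.174).

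The methionine cycle provides the S-adenosylmethionine that AMD1 decarboxylates. Of its 5 tested genes 2 fell and 1 rose. AHCY, which clears S-adenosylhomocysteine, fell from 276 ± 16.7 to 185 ± 9.05 CPM (SD, n = 2 each; log2 fold change -0.58, edgeR adjusted p = 1.69e-04). MTR, methionine synthase, rose by 0.50 (edgeR adjusted p = 0.00689), but by 0.33 without sample 2 of shCON, and was not called with no filter on low counts (edgeR adjusted p = 0.0658). MAT2A, which makes S-adenosylmethionine, fell by 0.30 (edgeR adjusted p = 0.0190), and shares exons with GGCX. That call was lost with library sizes alone (edgeR adjusted p = 0.0706), with no filter (edgeR adjusted p = 0.0572) and without sample 1 of shZDHHC15 (-0.24, edgeR adjusted p = 0.203).

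Methionine salvage recovers the methylthioadenosine that SRM and SMS release. Of its 6 genes 4 fell, none rose, and all 6 fold changes were below 0, with a median of -0.36, while 20.3% of all tested genes were called lower and 7724 of 15817 had a fold change below 0. ADI1 fell from 91.7 ± 1.49 to 57.9 ± 1.27 CPM (SD, n = 2 each; log2 fold change -0.66, edgeR adjusted p = 8.82e-05). GOT1, the aminotransferase of the last step, changed by -0.48 (edgeR adjusted p = 0.00210), and MTAP, the first enzyme, by -0.42 (edgeR adjusted p = 0.00470). The fourth was ENOPH1, which was no longer called with library sizes alone (-0.23) or without sample 1 (-0.29) or sample 2 (-0.32) of shZDHHC15, and MRI1 and APIP did not pass.

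Spermidine donates the group that turns a lysine of the translation factor EIF5A into hypusine. Of 4 genes for this step 3 fell and none rose, with a median log2 fold change of -0.69. EIF5A went from 1042 ± 144 to 716 ± 35.4 CPM (SD, n = 2 each; log2 fold change -0.54, edgeR adjusted p = 5.58e-04). DOHH, the hydroxylase that completes hypusine, went from 69.3 ± 9.33 to 39.7 ± 4.32 CPM (log2 fold change -0.80, edgeR adjusted p = 1.11e-04). EIF5A2, the less abundant paralogue, changed by -1.11 (SE 0.228, edgeR adjusted p = 0.00125). DHPS, the synthase that transfers the group, had 47 and 28 counts against 25 and 30, did not pass (edgeR adjusted p = 0.203), and shares exons with AC010422.8. Reads of EIF5A can also match EIF5AL1 and EIF5AP4, which had 2.46% and 1.64% of its counts.

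Of 8 tested genes linked to polyamine transport 3 fell and 2 rose. SLC3A2, the heavy chain of amino acid exchangers that has been linked to polyamine efflux, fell from 1504 ± 137 to 813 ± 51.8 CPM (SD, n = 2 each; log2 fold change -0.89, edgeR adjusted p = 3.46e-06). CAV1, a caveolar coat protein, changed by -0.63 (edgeR adjusted p = 1.55e-04), and the arginine transporter SLC7A1 was the third that fell, a call lost without sample 1 (-0.34) or sample 2 (-0.31) of shZDHHC15. SLC18B1, a vesicular polyamine transporter, rose from 23.3 ± 0.394 to 42.5 ± 1.40 CPM (log2 fold change 0.87, edgeR adjusted p = 3.45e-05), and so did ATP13A2, a lysosomal polyamine exporter, by 0.51.

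Other acetyltransferases and amine oxidases had 2 lower genes of 4 tested and none higher. SAT2, a relative of SAT1, changed by -0.50 (SE 0.146, edgeR adjusted p = 0.0121), and by -0.34 without sample 2 of shCON, where it was not called (edgeR adjusted p = 0.111), nor was it with no filter (edgeR adjusted p = 0.0596). AOC3, with 38 and 22 counts against 6 and 19, was called (edgeR adjusted p = 0.0296) and lost the call in DESeq2 (adjusted p = 0.109) and with no filter (edgeR adjusted p = 0.119). Its log2 fold change was -1.38 with all samples, -1.01 and not called without sample 1 of shCON, -0.81 and not called without sample 1 of shZDHHC15, and -2.38 without sample 2 of shZDHHC15. KDM1A, a histone demethylase of the amine oxidase fold, was the most abundant by counts and did not pass, at -0.17.

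Of 6 tested genes for factors known to act on ODC1 transcription or stability, 2 fell and 2 rose. MYC had 11619 and 11535 counts in shCON and 5996 and 7602 in shZDHHC15, a fall from 661 ± 32.9 to 355 ± 46.1 CPM (SD, n = 2 each; log2 fold change -0.90, edgeR adjusted p = 6.18e-06). NQO1, a quinone reductase that binds ODC1 and slows its degradation, rose from 261 ± 9.48 to 476 ± 22.0 CPM (log2 fold change 0.87, edgeR adjusted p = 2.66e-06). MXD1, a MAX partner that opposes MYC, rose by 0.84 (edgeR adjusted p = 2.10e-05) and shares 237 exon bases with SNRNP27. MYCL, at 41 and 44 counts against 12 and 12, was the other that fell. Outside these lists, YAP1 fell from 421 ± 7.23 to 59.9 ± 6.93 CPM (log2 fold change -2.81, edgeR adjusted p = 4.30e-11). The study counts ODC1 among reported targets of YAP, which binds TEAD factors. Its blots showed less palmitic-acid-enhanced ODC1 protein after YAP knockdown or the YAP inhibitor TED-347, in HCC1954 or TOV-112D cells. Any part of MYC or YAP1 in the fall of ODC1 was not tested. Of 4 genes that handle the products of oxidation and acetylation, ABAT, which acts on beta-alanine and GABA, rose from 7.07 ± 0.308 to 14.1 ± 0.525 CPM (SD, n = 2 each; log2 fold change 0.99, edgeR adjusted p = 2.19e-04) and shares exon bases with TMEM186. ALDH9A1, an aldehyde dehydrogenase for aminoaldehydes, did not pass at 0.22 (edgeR adjusted p = 0.0831).

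**Figure D4:**
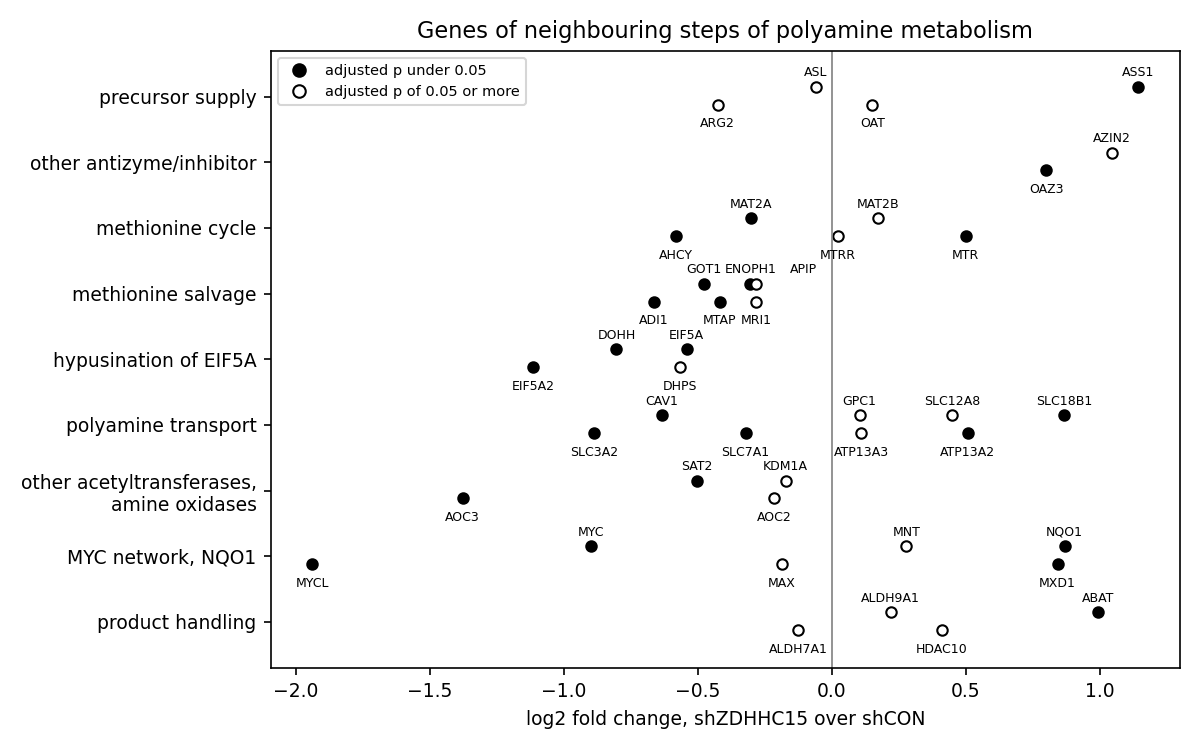
Log2 fold change (shZDHHC15 over shCON) of the 43 tested genes of neighbouring steps, 1 row per list, filled where the edgeR adjusted p was under 0.05. All filled genes of methionine salvage and of the hypusination of EIF5A lie below 0, while the lists of transport and of the MYC network hold filled genes on both sides.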

How the data were processed

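Total RNA libraries (NEBNext Ultra kit) of 2 shCON and 2 shZDHHC15 samples of HCC1954 were sequenced. The authors deposited raw read counts per gene, not normalized, for 58735 genes. The submitters' processing notes name HISAT2, StringTie, SAMtools and hg38, and the counting tool and use of strand are not given in the sources used here. All 58735 identifiers had the same start and end in GENCODE 29 (GRCh38), and the deposited gene length equalled the union exon length for all of them. Groups came from the sample labels, and every column of counts was used.

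In R 4.3.3, filterByExpr kept 15817 genes for the quasi-likelihood test of edgeR 4.0.16 (glmQLFit with its current quasi-dispersion, then glmQLFTest; limma 3.58.1 underneath), scaled by TMM. P-values were adjusted by Benjamini-Hochberg over every gene tested, with calls under 0.05. The standard error is the size of the fold change over the root of F. The method was also run on simulated data, whose outcome is not given here, and no result above rests on it. The labels' replicate numbers were not used as pairs. Alternatives were other scalings, DESeq2 1.42.0, other filters, a block for the replicate number, the older quasi-dispersion and fits without each sample. Overlapping genes were listed, as were copies matching over 150 bases or more at an identity of 97% or more. Promoters are from RefSeq (GRCh38.p14) and were found for 7 of the 10 genes. AZIN1, SMOX and PAOX had no entry. Protein sequences were not analysed here.

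The genes and lists were chosen with earlier results of these data known. Of the further lists, each is given by its counts, and at most the 3 genes with the smallest adjusted p and the gene with the highest mean count are named with values. Any further gene named was chosen after its values were seen. 1 gene of the cell type markers is not reported here.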

Additional observations from a re-analysis of the deposited data

How the results depend on the processing

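The 7 lower polyamine genes stayed 7 under each alternative scaling, filter and test, and 0 were called higher. Fits without 1 sample assume that the lone sample of a group varies like the other group. Without sample 1 of shCON the standard error of ODC1 was 0.110, against 0.108 with all samples, yet its edgeR adjusted p was far smaller. A call kept without 1 sample, here or below, is therefore not read as stability. The median of the 10 genes was -0.31 with library sizes alone and -0.42 to -0.37 without 1 sample. With library sizes alone the median of all genes was 0.09. Of the values of single polyamine genes, 114 kept their direction and side of the threshold, 2 lost the call (OAZ1 and SMS), 1 gained it (SAT1) and 3 turned sign (SRM, -0.0047 with upper-quartile factors, and -0.0939 to 0.1366 without 1 sample). Of the genes of neighbouring steps, 478 values kept both, 20 lost the call, 8 gained it and 8 turned sign, in genes not called with all samples: ASL (0.0154 with library sizes alone, -0.1386 to 0.0132 without 1 sample), MTRR (-0.0085 with upper-quartile factors, -0.0299 to 0.0719 without 1 sample), and, without 1 sample, ATP13A3 (-0.0584 to 0.273), GPC1 (-0.0057 to 0.192) and HDAC10 (-0.0372 to 0.7373). The called counts of these genes were 7 to 8 higher and 12 to 17 lower without 1 sample, and 12 were higher with library sizes alone. Over all genes, 2282 were called higher with no filter on low counts against 3427; without 1 sample 2537 to 3489 were higher and 2200 to 3457 lower. The cause was not tested.

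The deviations of samples with the same number had a correlation of 0.0820 across 15817 genes. The labels do not say whether the numbers pair the samples, and so few samples cannot settle it. With the replicate number as a block, 8 polyamine genes were lower and 0 higher, SAT1 being added (edgeR adjusted p = 0.0471), 9 and 16 genes of neighbouring steps were higher and lower, with ALDH9A1 added (edgeR adjusted p = 0.0495), and 3723 and 3502 of all genes were higher and lower. The median of the 10 genes was -0.39 under the block.

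The 13 neighbouring genes with too few counts for the filter were not tested, and PAOX had 42 to 68 counts. Counts are of transcripts, and no polyamine, enzyme activity or protein was measured.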

Other observations

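The 13 genes of neighbouring steps that did not pass the filter on low counts had at most 8 counts in any sample. OTC, SLC22A3 and SATL1 were at 0 counts in all 4 samples, which allows up to 3 counts in each. MYCN had 0 counts in both shCON samples and 5 and 2 in shZDHHC15, and MAT1A, the liver form of the enzyme that makes S-adenosylmethionine, had 2 and 8 against 1 and 2, too few for a comparison.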
